A study of Mus musculus with 45 samples.

Results

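NIH-3T3 is a line of fibroblasts from mouse embryos, and its newly transcribed RNA was compared between a 60 min label and a 15 min label. The 2F 60 min group comprised the 3 arrays whose titles carry 2F, 1h and mock and give newly transcribed RNA (nt-RNA) labelled with 4-thiouridine (4sU) at 200 µM over the interval 0 to 60 min. The 15 min group comprised the 3 arrays whose titles carry 15min and mock, with 4sU at 500 µM over 0 to 15 min. These 6 arrays were chosen by title from the 45 Affymetrix arrays of the series, which fall into 11 groups. All cells were NIH-3T3 at passages 5 to 15 after thawing, plated at 40% density and used at about 80% density 24 h later, with no genotype or further agent given for either group. Serum was stated as 5% for every array. The labels explain neither 2F nor mock. The label was added in fresh medium at the start, so the time since the medium change equals the labelling time. Time, dose and the 2F experiment differ together and cannot be told apart.

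The other groups used here were newly transcribed RNA after 30 min at 500 µM (9 arrays), newly transcribed RNA (3 arrays) and pre-existing RNA (3 arrays) of the first 60 min experiment at 200 µM, total RNA of the 2F experiment after 60 min (3 arrays), total RNA at 30 min (9 arrays), total RNA titled as taken before actinomycin D (3 arrays), which is the start of the actinomycin D series and not of the 2F experiment, and total RNA after 2 h of 5 µg/ml actinomycin D (3 arrays), an inhibitor of transcription. Pre-existing RNA is the fraction that was not labelled.

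4-Thiouridine is a uridine analogue that cells build into the RNA they make. The thiol group lets labelled RNA be biotinylated and separated from the RNA that was there before. A short label catches transcripts close to their synthesis, introns included, and a longer label adds transcripts that have been spliced, exported and in part degraded. Fresh medium with serum is a known stimulus of immediate-early genes in fibroblasts, which encode mostly transcription factors and are followed by inhibitors that damp the same signals.

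The values are the deposited GCRMA intensities, taken here as log2. Changes are log2 changes, 2F 60 min over 15 min, ± standard error from limma over 3 arrays against 3. Calls required at least a 2-fold change together with a p under 0.05 after Benjamini-Hochberg adjustment over all probe sets tested in the comparison. Nothing states that replicates were separate cultures, and the p-values reflect only how far arrays of a group scatter, possibly for technical reasons. Because each array was normalized as a whole, a change is relative to the rest of the array and not an amount per cell.

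The arrays of each group were close to each other. Pearson correlations were taken over all probe sets other than controls, with no filter on dim probe sets. They were 0.993 to 0.996 within the 2F 60 min arrays, 0.985 to 0.992 within the 15 min arrays and 0.898 to 0.941 between them. These values describe arrays that share 1 platform. Replicate 1 of the first 60 min experiment stood apart from its group, with a Gapdh control signal 3.07 higher on the log2 scale at the 3′ end than at the 5′ end, against -0.36 to 0.03 in the 6 arrays compared here. The 5′ control probe set for 18S ribosomal RNA read 378, 72.8 and 89.8 in the 2F 60 min arrays and 533, 582 and 287 in the 15 min arrays, and its part in the results was not tested. Of 16 fibroblast markers, all 16 had a mean intensity of 32 or more in both groups, and their summed intensity was 78829 to 81247 in the 2F 60 min arrays and 76652 to 81581 in the 15 min arrays. Of the other cell type markers on the array, 0 of 5 epithelial, 1 of 6 leukocyte, and 0 of 5 endothelial and muscle markers reached 32. The leukocyte marker that did was Cd14, a lipopolysaccharide co-receptor, at 72.3, 103 and 166 in 2F 60 min RNA, against 40.4, 32.3 and 24.4 in 15 min RNA.

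Newly transcribed RNA of a 60 min label differed from that of a 15 min label over much of the transcriptome. Averaged over the 6 arrays, 16540 probe sets reached a log2 of 5, an intensity of 32. Of these, 3452 were higher in 2F 60 min RNA (20.9%) and 2988 were lower (18.1%), and for 12407 (75.0%) all arrays of one group lay above all of the other. The median change was 0.31, and changes ran between -6.64 and 5.13. With the brightest probe set for each of 7934 genes, 1894 genes were higher (23.9%) and 489 were lower (6.16%), with a median of 0.49. Counts of genes below are read against these shares.

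The largest increases are given for genes read by their brightest probe set. Snai1, a zinc-finger repressor known for its role in epithelial-mesenchymal transition, had intensities of 5693, 5805 and 7633 in 2F 60 min RNA, against 174, 195 and 172 in 15 min RNA. Every 2F array lay far above every 15 min array, and the change was 5.13 ± 0.16 (limma adjusted p = 2.7e-07), the largest of all probe sets tested. The same probe set had a median of 554 in the 9 arrays at 30 min, below the 7686, 2782 and 2199 of the first 60 min experiment and above the 15 min values.

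Pdlim5, a PDZ and LIM domain protein of the actin cytoskeleton, reached 2686, 2755 and 1972 in 2F 60 min RNA, against 135, 106 and 102 in 15 min RNA. The groups were separate, with a change of 4.43 ± 0.19 (adjusted p = 7.3e-07). Foxc2, a forkhead transcription factor, read 1134, 1152 and 1239 in 2F 60 min RNA, against 97.0, 138 and 65.7 in 15 min RNA, a change of 3.62 ± 0.24. Slc30a1, a zinc exporter, read 1537, 1524 and 1499 in 2F 60 min RNA, against 109, 276 and 83.8 in 15 min RNA, where replicate 2 was higher than the other two. Its change was 3.48 ± 0.36 (adjusted p = 2.5e-05).

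Also among the 15 largest increases, with the brightest probe set standing for a gene, were Lbh (3.37 ± 0.19), a transcriptional cofactor, Erf (3.26 ± 0.36), an ETS-family repressor, Bhlhe40 (3.25 ± 0.23), a basic helix-loop-helix repressor, Noct (3.21 ± 0.28), known as nocturnin and rhythmic in many tissues, Zfp697 (3.17 ± 0.23), a zinc-finger protein, and Psme3 (3.11 ± 0.20), a proteasome activator subunit. Their adjusted p reached at most 3.4e-05, and for each the 3 arrays of the 2F group lay above the 3 arrays at 15 min, a separation that the naming rule required. Klf10, Csrnp1, Tnfaip3, Lif and Ccl2 complete the 15 and are described with their groups.

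**Figure D1:**
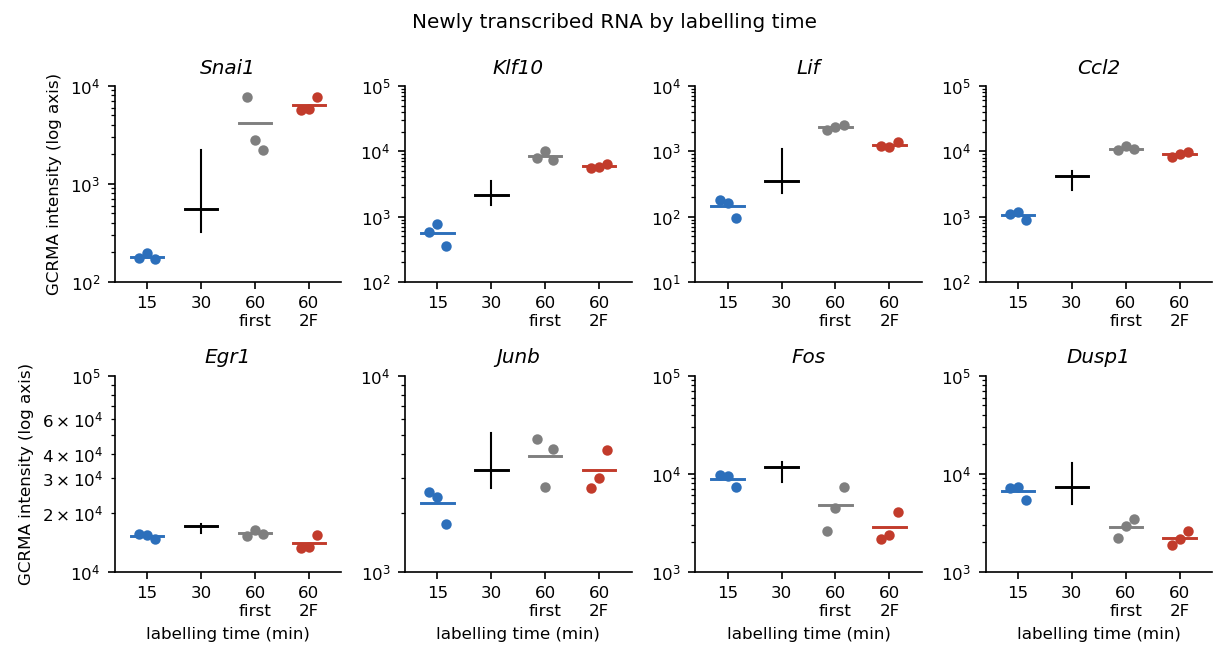
Intensity of newly transcribed RNA (log axis) by labelling time for 8 genes. Points are arrays and short lines group means at 15 min, in the first 60 min experiment and in the 2F 60 min experiment, and at 30 min the line spans the lowest to the highest of 9 arrays with a bar at the median. Snai1, Klf10, Lif and Ccl2 lie higher in both 60 min groups than at 15 min, Egr1 stays within a narrow band, and Fos and Dusp1 lie lower in the 2F 60 min group than at 15 min, while Fos of the first 60 min experiment overlaps with 15 min.

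Immediate-early genes went in both directions. Of 51 listed genes, 47 passed the filter on dim probe sets, and 15 of these were higher in 2F 60 min RNA, 5 were lower and 27 were not called, with a list median of 0.55 beside 0.49 for all genes. Fos, a subunit of the transcription factor AP-1, had 2181, 2346 and 4038 in 2F 60 min RNA, against 9687, 9509 and 7316 in 15 min RNA. All 2F values were below all 15 min values, with a change of -1.68 ± 0.24 (adjusted p = 0.00018).

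Dusp1, which inactivates MAP kinases by removing phosphate, had 1879, 2144 and 2589 in 2F 60 min RNA, against 7171, 7249 and 5391 in 15 min RNA, a change of -1.58 ± 0.18 without overlap. Zfp36, also called tristetraprolin and known to promote the decay of AU-rich mRNAs, had 1322, 1392 and 1837 in 2F 60 min RNA, against 4229, 5162 and 3357 in 15 min RNA (-1.48 ± 0.20). Ier2, an immediate-early nuclear protein, changed by -1.41 ± 0.23, and Arc, known from neurons as a regulator of synapses, by -1.02 ± 0.40 with arrays that overlapped between the groups. Arc was also the 1 gene of these 5 with a pre-existing mean below 32.

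Other members of the AP-1 family were higher. Fosl1 had 7744, 8149 and 8410.3 in 2F 60 min RNA, against 1282, 1576 and 879 in 15 min RNA, and Fosb had 99.0, 115 and 152, against 21.6, 31.2 and 10.9, where the 15 min mean was under the floor of 32. Both groups of arrays were separate for each gene, with changes of 2.74 ± 0.21 for Fosl1 and 2.63 ± 0.34 for Fosb (adjusted p = 4.3e-06 and 9.2e-05). Atf3 (2.18 ± 0.31), Maff (1.92 ± 0.34) and Jund (1.08 ± 0.25), 3 further basic leucine zipper factors, were also called higher. Jun (0.55 ± 0.19), Junb (0.55 ± 0.21) and Fosl2 (0.54 ± 0.15) were higher in each 2F array than in each 15 min array, with adjusted p of 0.027, 0.04 and 0.0095, but below 2-fold.

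Among the Krüppel-like factors, Klf10, a repressor induced by transforming growth factor beta, had 5642, 5704 and 6289 in 2F 60 min RNA, against 572, 765 and 356 in 15 min RNA. Its change of 3.45 ± 0.25 was the largest of the list (adjusted p = 3.4e-06). Csrnp1, a nuclear protein rich in cysteine and serine, followed with 679, 729 and 1125 in 2F 60 min RNA, against 89.6, 125 and 57.2 in 15 min RNA (3.25 ± 0.29). Klf4 changed by 1.35 ± 0.15, whereas the values of Klf6 (-0.20 ± 0.19) and Klf2 (0.68 ± 0.32) overlapped between the groups.

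The remaining increases of the list were Gadd45b (2.21 ± 0.17), a stress-response protein that acts on MAP kinase signalling, Hbegf (2.20 ± 0.19), a ligand of the epidermal growth factor receptor, Per1 (1.54 ± 0.24), a circadian clock repressor, Phlda1 (1.49 ± 0.15), Plk3 (1.42 ± 0.28), a polo-like kinase, Tsc22d1 (1.34 ± 0.16) and Nfil3 (1.21 ± 0.24). Hbegf had 6789, 7229 and 8645 in 2F 60 min RNA, against 1911, 1832 and 1253 in 15 min RNA.

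Several of the brightest immediate-early genes were not called. Egr1, a zinc-finger factor, read 13275, 13294 and 15463 in 2F 60 min RNA, against 15596, 15399 and 14669 in 15 min RNA, values that overlap, with a difference of -0.12 ± 0.14 and a 95% interval of -0.44 to 0.19. Ccn1, a matricellular protein, read 16761, 17902 and 18007 in 2F 60 min RNA, against 17524, 20729.9 and 15752 in 15 min RNA (interval -0.37 to 0.32). Ptgs2, the inducible cyclooxygenase, read 19119, 19924 and 16900.1 in 2F 60 min RNA, against 18753, 19080.0 and 16190.1 in 15 min RNA (interval -0.28 to 0.38). Myc, a growth-promoting transcription factor, had 3761, 4059.6 and 4875 in 2F 60 min RNA, against 2506, 3218 and 2061 in 15 min RNA, and its change of 0.72 ± 0.19 (adjusted p = 0.0075) stayed below 2-fold.

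Total RNA of the 2F experiment, on arrays that the comparison did not use, was set against the total RNA taken before actinomycin D. That comparison crosses experiments, so the experiment and the 60 min cannot be told apart in it. Of 45 immediate-early genes tested there, 32 were called higher and 0 lower, against 3.2% and 0.938% of all probe sets in that comparison. Fos total RNA was 586, 572 and 762 in the 2F experiment and 52.1, 59.8 and 55.9 before actinomycin D, while its newly transcribed RNA was lower at 60 min than at 15 min. Dusp1 total RNA was 607, 607 and 675 in the 2F experiment and 517, 620.0 and 637 before actinomycin D, values that overlap, and was not called (limma adjusted p = 0.53). After 2 h of actinomycin D, 27 of 38 members tested were lower than before, against 12.1% of all genes tested, with a list median of -2.27.

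Calls in the list of feedback regulators of signalling were all increases. Dusp1, called lower, was counted with the immediate-early genes and is not in this list. The lists were chosen with earlier results of these data known. Of 32 listed genes 27 passed the filter, and 20 were higher in 2F 60 min RNA, 0 were lower and 7 were not called, with a median of 1.70 beside 0.49 for all genes. Tnfaip3, known as A20 and an inhibitor of NF-kappaB signalling, had 349, 412 and 559.8 in 2F 60 min RNA, against 46.7, 51.7 and 28.8 in 15 min RNA. All 3 arrays of the 2F group were above all 3 at 15 min, a change of 3.39 ± 0.25 (adjusted p = 3.8e-06).

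The inhibitors of NF-kappaB Nfkbia and Nfkbie followed. Nfkbia had 10669.7, 11859 and 11046 in 2F 60 min RNA, against 3335, 3661 and 2717 in 15 min RNA (1.80 ± 0.16), and Nfkbie had 349, 343 and 383, against 58.4, 64.2 and 50.2 (2.64 ± 0.15). Nfkbiz, an atypical member of the same family, did not pass (0.32 ± 0.17, adjusted p = 0.13).

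In the Ras and MAP kinase pathway, the phosphatases Dusp4 (2.10 ± 0.24) and Dusp10 (2.11 ± 0.22) were higher, unlike Dusp1, and Dusp6 (0.12 ± 0.18) was not called. Spry4 read 467, 469 and 255 in 2F 60 min RNA, against 80.0, 81.0 and 52.6 in 15 min RNA (2.45 ± 0.27). Spry1 (1.70 ± 0.15), Spred1 (1.46 ± 0.21), Spred2 (1.41 ± 0.19), Errfi1 (1.02 ± 0.18) and Lrig1 (1.33 ± 0.24), all dampers of growth factor receptor signalling, were called higher, while Spry2 (0.34 ± 0.14) was not.

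In the transforming growth factor beta and bone morphogenetic protein pathways, the inhibitory Smad7 had 1208, 1175 and 1335 in 2F 60 min RNA, against 290.5, 314 and 294 in 15 min RNA (2.05 ± 0.14). Id1, Id2 and Id3, which block basic helix-loop-helix factors, changed by 2.45 ± 0.18, 1.90 ± 0.16 and 2.76 ± 0.19, and Skil, a repressor of Smad signalling, by 1.91 ± 0.18. Bambi, a pseudoreceptor, changed by 1.64 ± 0.18. Hes1, the Notch-responsive repressor, had 294, 323 and 395 in 2F 60 min RNA, against 35.1, 65.3 and 34.3 in 15 min RNA (2.97 ± 0.25), and Rgs16, which shortens G-protein signals, had 663, 799.9 and 973, against 155, 153 and 67.9 (2.77 ± 0.31).

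In total RNA of the 2F experiment 9 of 24 feedback regulators tested were higher than before actinomycin D, against 2.82% of all genes tested, and 0 were lower. After 2 h of actinomycin D 18 of 20 tested were lower, against 9.3% of all probe sets.

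The promoters of Tnfaip3, called higher, and Dusp1, called lower, are shown because they hold motifs of factors known to act early after stimulation. Each is the stretch of 250 bases before the gene's start from RefSeq (GRCm38.p6), 5′ to 3′ on the strand of the gene, at chr10:19015411-19015660 on the minus strand for Tnfaip3 and chr17:26508473-26508722 on the minus strand for Dusp1. Both strands were searched, and capitals mark matches to the kappaB site, TGANTCA (an AP-1 site) or TGACGTCA (a cyclic AMP response element).
Tnfaip3: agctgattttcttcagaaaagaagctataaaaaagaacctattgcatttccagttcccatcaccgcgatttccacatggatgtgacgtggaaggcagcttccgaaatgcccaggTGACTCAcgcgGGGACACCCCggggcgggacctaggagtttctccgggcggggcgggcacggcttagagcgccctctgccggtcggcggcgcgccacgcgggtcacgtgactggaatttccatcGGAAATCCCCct
Dusp1: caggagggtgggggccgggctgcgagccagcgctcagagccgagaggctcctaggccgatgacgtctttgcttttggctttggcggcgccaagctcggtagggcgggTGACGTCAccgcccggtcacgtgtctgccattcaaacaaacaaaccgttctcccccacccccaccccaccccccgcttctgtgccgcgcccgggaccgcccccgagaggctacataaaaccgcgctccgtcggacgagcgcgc
In Tnfaip3 the kappaB matches begin 125 and 12 bases before the start and TGANTCA begins 136 bases before it, and in Dusp1 TGACGTCA begins 143 bases before the start. Motif and direction did not go together in each gene. Fos, called lower, also held a kappaB match, 214 bases before its start, and Snai1, the largest increase, held no match. Over the genes with a promoter in the table, the kappaB site was found in 5.13% of 1558 called higher, 3.24% of 401 called lower and 4.39% of 6543 tested, and in 3.75% of all 27025 promoters of the table. TGANTCA was found in 3.4%, 5.74% and 3.7% of the same sets in the same order, and in 6.87% of all promoters. TGACGTCA was found in 3.98%, 3.74% and 3.06%, and in 1.62% of all promoters. The CArG box, bound by serum response factor, was found in 1.48%, 2.24% and 1.13%, and in 1.4% of all promoters. A match is a description of the letters and not a measured binding site.

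Cytokines and growth factors included some of the largest increases and a few decreases. Of 19 genes tested, 8 were higher, 2 were lower and 9 were not called, with a median of 0.84. Lif, a cytokine of the interleukin-6 family, had 1195, 1168 and 1372 in 2F 60 min RNA, against 179, 160.4 and 94.7 in 15 min RNA (3.15 ± 0.23, adjusted p = 3.7e-06). Ccl2, a monocyte chemoattractant, had 8301, 9223 and 9679.5 in 2F 60 min RNA, against 1109, 1157 and 873 in 15 min RNA (3.12 ± 0.16, adjusted p = 1.3e-06). For both genes every 2F array was above every 15 min array.

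Il11 (2.47 ± 0.17), a relative of Lif, the chemokine Ccl7 (2.00 ± 0.20), the epidermal growth factor receptor ligand Ereg (1.68 ± 0.20), Pdgfa (1.48 ± 0.13), Csf1 (1.29 ± 0.13) and Vegfa (1.12 ± 0.19) were also called higher. Hgf, hepatocyte growth factor, had 319.5, 366 and 317 in 2F 60 min RNA, against 1724, 1106 and 1778 in 15 min RNA, a change of -2.17 ± 0.20 (adjusted p = 1.2e-05). Cxcl12, a chemokine made by stromal cells, had 145, 146 and 156 in 2F 60 min RNA, against 405, 308 and 372 in 15 min RNA (-1.27 ± 0.15). Il6, Cxcl1 and Cxcl5 were not called, and their values overlapped between the groups (0.21 ± 0.20, 0.34 ± 0.22 and 0.15 ± 0.17).

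Genes of the fibroblast's structure included calls in both directions. Of 28 genes of the actin cytoskeleton and focal adhesions, 7 were higher and 0 lower, with a median of 0.56. Vcl, encoding vinculin of focal adhesions, had 7468, 6006 and 5288 in 2F 60 min RNA, against 1419, 1289.7 and 1153 in 15 min RNA (2.27 ± 0.17, adjusted p = 4.2e-06). Pdlim7 (2.34 ± 0.19), Ezr (2.29 ± 0.15), which links actin to the membrane, Actn1 (1.34 ± 0.14), an alpha-actinin, and Flna (1.11 ± 0.16), a filamin that fell just short of 2-fold under quantile normalization, were also higher, as was Myl9 (1.59 ± 0.36), a myosin light chain whose 15 min mean was below 32. Actb, encoding beta-actin, read by its brightest probe set, differed by 0.04 ± 0.14 with a 95% interval of -0.27 to 0.35, and its sign turned when the arrays were centred on their medians.

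Of 37 genes of the matrix, adhesion and their enzymes, 2 were higher, 5 were lower and 30 were not called, with a median of 0.10 that was 0.00 under quantile normalization. Timp1, an inhibitor of metalloproteinases, had 3742, 3578 and 4360.5 in 2F 60 min RNA, against 1045, 1375 and 1117 in 15 min RNA (1.73 ± 0.16), and Tnc, encoding tenascin C, changed by 1.41 ± 0.18. Postn, encoding periostin, had 92.1, 77.8 and 59.8 in 2F 60 min RNA, against 406, 225 and 258 in 15 min RNA (-1.93 ± 0.24). Lum, encoding lumican, changed by -1.28 ± 0.20, Fbln2, encoding fibulin 2, by -1.39 ± 0.16, P4ha1, a prolyl hydroxylase subunit, by -1.19 ± 0.14, and Itga5, an integrin subunit whose probe sets disagree, by -2.0. Among the 5 matrix genes called lower, 2 had a pre-existing mean below 32.

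Genes of the respiratory chain were mostly lower. Of 70 genes of oxidative phosphorylation tested, 39 were lower in 2F 60 min RNA, 1 was higher and 30 were not called, with a median of -1.17 beside 0.49 for all genes. Ndufa3, a subunit of complex I, had 192, 204 and 245 in 2F 60 min RNA, against 1127, 1138 and 1354 in 15 min RNA. The groups were separate, with a change of -2.50 ± 0.16 (adjusted p = 2.1e-06). Ndufa13 and Ndufc1 of complex I changed by -2.45 ± 0.18 and -2.32 ± 0.17, Uqcr11 of complex III by -2.32 ± 0.21, and the ATP synthase subunits Atp5k and Atp5e by -2.40 ± 0.15 and -2.32 ± 0.23. Uqcrfs1, the Rieske iron-sulfur subunit of complex III, was the member called higher (1.15 ± 0.17).

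Cytosolic ribosomal protein genes were lower for 12 of 43 tested and higher for 0, with a median of -0.59. Rps15 had 2431, 2728 and 3422 in 2F 60 min RNA, against 8304, 7878 and 8922 in 15 min RNA (-1.56 ± 0.17), and Rpl37a had 6266, 6494 and 7893, against 16860.4, 16458 and 17984 (-1.32 ± 0.15). Fau, whose product is processed to a ribosomal protein, changed by -1.42 ± 0.16. Ribosomal protein genes have many near-identical pseudogene copies that a probe set may also detect.

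Few genes of the other metabolic lists were called. Of 28 glycolysis and citrate cycle genes, Hk2, a hexokinase, was higher (1.56 ± 0.17), Tpi1, triose phosphate isomerase, was lower (-1.46 ± 0.16), and 26 were not called. Of 34 proteasome genes 2 were higher and 3 lower, with Psmd12 at 1.43 ± 0.14 and Psmb3 at -1.17 ± 0.17. Among the 3 lower, 1 had a pre-existing mean below 32. Of 26 sterol and fatty acid genes 3 were higher and 0 lower, and these were Srebf1 (1.63 ± 0.17) and Srebf2 (1.38 ± 0.17), which activate the pathway, and Fasn (1.39 ± 0.18), encoding fatty acid synthase.

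**Figure D2:**
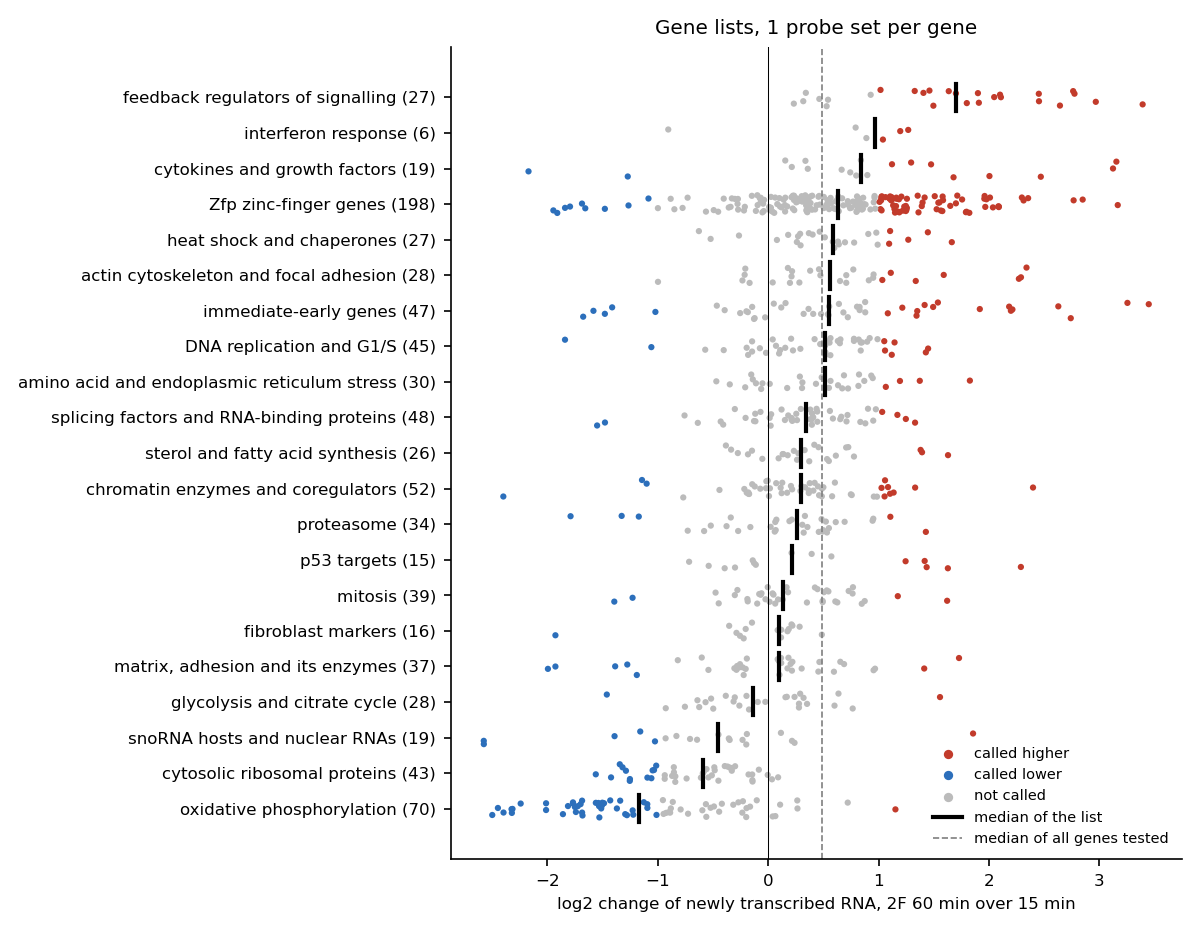
Log2 change of newly transcribed RNA, 2F 60 min over 15 min, for the members of 21 gene lists with 6 or more genes tested (number in brackets), 1 probe set per gene. Red points were called higher, blue points lower and grey points were not called, short black lines are list medians, and the dashed line is the median of all genes tested, 0.49. Feedback regulators have the highest median, 1.70, and oxidative phosphorylation the lowest, -1.17.

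Zinc-finger genes, like all genes tested, were called higher more often than lower. Of 198 Zfp genes 66 were higher, 9 were lower and 123 were not called, with a median of 0.63. Over all genes tested 23.9% were higher and 6.16% were lower, with a median of 0.49. Zfp644 had 1155, 1159.5 and 949 in 2F 60 min RNA, against 166, 209 and 116 in 15 min RNA (2.77 ± 0.22), and Zfp655 had 1778, 1635 and 1977, against 375, 453 and 275 (2.31 ± 0.20). Among 52 chromatin genes 8 were higher, among them the histone demethylase Kdm6b (2.40 ± 0.15), and 3 were lower, among them the demethylase Kdm5c (-2.40 ± 0.18). Of these 3 lower genes 2 had a pre-existing mean below 32, as did 6 of the 9 Zfp genes called lower. Of 48 splicing factors and RNA-binding proteins 4 were higher and 2 were lower, and those lower were Rbm39 (-1.55 ± 0.13) and Sf3b3 (-1.48 ± 0.17). Another probe set of Sf3b3 was not called (0.24 ± 0.17, limma adjusted p = 0.22).

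Hosts of small nucleolar RNAs and nuclear RNAs were lower for 5 of 19 genes and higher for 1. Of the 5 lower, 2 had a pre-existing mean below 32. Rian, a long noncoding RNA of the imprinted Dlk1 region, had 168, 167 and 195 in 2F 60 min RNA, against 1226, 749 and 1266 in 15 min RNA (-2.58 ± 0.21). Snhg3, a host of small nucleolar RNAs, had 97.4, 117 and 133 in 2F 60 min RNA, against 479, 1110.1 and 604 in 15 min RNA (-2.58 ± 0.28). Dleu2 (-1.39 ± 0.19), Snhg12 (-1.16 ± 0.16) and Kcnq1ot1 (-1.03 ± 0.18), the antisense RNA of an imprinted domain, were also lower, Kcnq1ot1 falling short of 2-fold without replicate 2 or 3 of the 2F group, and Snhg17 was higher (1.86 ± 0.18).

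In the stress and cell cycle lists most genes were not called. Of 30 genes of amino acid and endoplasmic reticulum stress 4 were higher, led by Cebpb (1.83 ± 0.18), and 0 were lower. Of 15 p53 targets 5 were higher and 0 lower, with Aen, an exonuclease, at 2.29 ± 0.16 and Cdkn1a, the inhibitor p21, at 1.42 ± 0.21. Of 27 heat shock genes 5 were higher and 0 lower, with Hspa4 at 1.66 ± 0.15, and of 6 interferon response genes 3 were higher. Of 45 replication genes 6 were higher and 2 were lower, among the lower Tyms (-1.84 ± 0.14), thymidylate synthase. These 2 were read by probe sets with a pre-existing mean below 32. Of 39 mitosis genes 2 were higher and 2 were lower, among the lower Cenpa (-1.39 ± 0.14), the centromeric histone.

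With the brightest probe set standing for a gene, the 15 largest decreases at an average log2 of at least 7 were on probe sets with a mean below 32 in pre-existing RNA. Ppp1r10, a regulatory subunit of protein phosphatase 1, had 34.0, 47.8 and 49.4 in 2F 60 min RNA, against 469, 612 and 375 in 15 min RNA, a change of -3.46 ± 0.22 (adjusted p = 2e-06). Its probe set read 5.9, 11.9 and 8.1 in pre-existing RNA. Cdk12, a kinase of the RNA polymerase II tail, had 213, 201 and 224 in 2F 60 min RNA, against 1644, 1216 and 1483 in 15 min RNA (-2.76 ± 0.16), and read 9.8, 9.7 and 7.7 in pre-existing RNA.

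Ncam1, a cell adhesion molecule, had 206, 161 and 136 in 2F 60 min RNA, against 1190.0, 1203 and 1188 in 15 min RNA (-2.85 ± 0.17), and a pre-existing mean of 8.0. Nav2 (-3.15 ± 0.15), H3f3a (-2.94 ± 0.17), a gene of replication-independent histone H3.3, Camk2d (-2.83 ± 0.16), a calmodulin-dependent kinase, Adamts9 (-2.80 ± 0.15), a metalloproteinase, Cstf3 (-3.06 ± 0.22), a cleavage stimulation factor subunit, and Ap2a2 (-2.65 ± 0.18), an adaptor of clathrin coats, were also among the 15 largest. The list was completed by 4931406H21Rik (-3.56 ± 0.25), 2310067E19Rik (-3.26 ± 0.19), Cr1l (-3.02 ± 0.17), Itprip (-2.98 ± 0.15), Slc9a8 (-2.87 ± 0.19) and Ccdc25 (-2.68 ± 0.17). Another probe set of Itprip, 1433943_at, with a pre-existing mean of 101.6, was called higher (2.54 ± 0.24). The pre-existing mean was 5.2 for Nav2 and 11.7 for H3f3a, whose name here stands for this probe set.

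Over all probe sets the same held as a count. Of 2988 probe sets called lower, 2443 (81.8%) had a mean below 32 in pre-existing RNA, against 5.39% of those called higher and 20.4% of all tested. The median intensity in pre-existing RNA was 9.1 for those called lower, 162.7 for those called higher and 171.1 for all tested. In newly transcribed RNA the median intensity of those called lower was 288 at 15 min, 122 at 30 min, 60.0 in the first 60 min experiment and 66.4 in the 2F experiment. For those called higher it was 78.2, 142, 213 and 224 at the same stages. The calls were made on the 15 min and 2F 60 min arrays, so the medians of these groups follow from the selection. The arrays at 30 min and of the first 60 min experiment did not enter the calls.

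**Figure D3:**
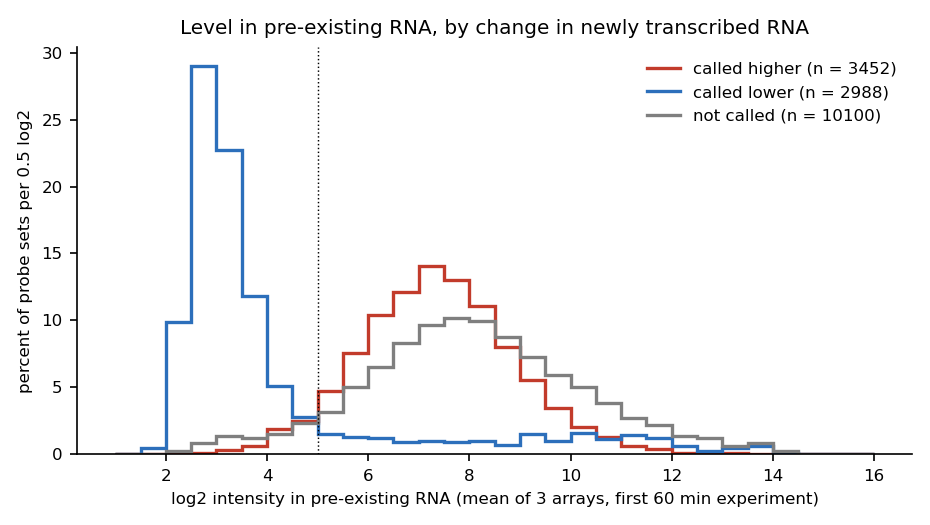
Distribution of log2 intensity in pre-existing RNA (mean of 3 arrays of the first 60 min experiment) for probe sets called higher, called lower or not called in 2F 60 min against 15 min newly transcribed RNA. Lines give the percent of each class per bin of 0.5, and the dotted line marks the floor of 32. Of the probe sets called lower 81.8% lie below the floor, against 5.39% of those called higher.

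The 489 genes called lower divided nearly evenly at that floor, a split made after the values were seen. Of these, 243 (49.7%) had a pre-existing mean below 32 and 246 had one of 32 or more. A mean below 32 was found for 4.17% of genes called higher and 6.94% of all genes tested.

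Oxidative phosphorylation and ribosomal proteins lay on the bright side of this split. Of the 39 oxidative phosphorylation genes called lower 38 had a pre-existing mean of 32 or more, as did all 12 ribosomal protein genes. Over the whole lists, called or not, 1 of 70 and 0 of 43 genes tested had a mean below 32. Their place in the split thus follows from the lists and not from the calls. At 30 min, 65 of 70 oxidative phosphorylation genes tested were lower in newly transcribed than in total RNA, against 25.3% of all genes tested. Their median there was -1.88 beside -0.21 for all genes tested. Ndufa3 total RNA was 2399, 2302 and 2191 before actinomycin D, above its newly transcribed RNA at either time. After actinomycin D 0 of 69 oxidative phosphorylation genes were lower, against 12.1% of all genes tested. Their median was 0.21 beside 0.03 for all genes tested.

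The same readouts were taken for the regulators. At 30 min 24 feedback regulators of 27 were higher and 0 lower in newly transcribed than in total RNA, with a median of 2.11. For immediate-early genes 45 of 47 were higher, with a median of 2.39. Of all genes tested 17.6% were higher. Over all 1894 genes called higher, the median at 30 min was 0.07, and 392 of 1689 tested (23.2%) were lower after actinomycin D, against 12.1% of all genes tested.

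Probe sets without a gene symbol were mostly lower. Of 2164 tested 1432 were lower in 2F 60 min RNA (66.2%) and 161 higher (7.44%), with a median of -1.72, and with no filter on dim probe sets 36.9% of this class were lower. Of the 13947 probe sets with 1 symbol, 10.8% were lower and 23.2% higher. The largest decrease of all was 1439535_at, at 17.6, 27.1 and 26.7 in 2F 60 min RNA, below the floor, against 2381, 2729 and 1939 in 15 min RNA (-6.64 ± 0.21). Of the 1432 called lower, 97.6% had a pre-existing mean below 32. Of these 1432, 880 were tested at 30 min and 856 (97.3%) were higher in newly transcribed than in total RNA, against 1047 of 1536 (68.2%) of all probe sets without a symbol tested in both comparisons. The filter at 30 min averaged newly transcribed and total RNA. Of the 1432, 72.0% had a mean below 32 in total RNA before actinomycin D. A probe set dim in total RNA could pass only where newly transcribed RNA was bright, so the 97.3% follows in part from the filter. The genome positions of these probe sets were not analysed here.

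**Figure D4:**
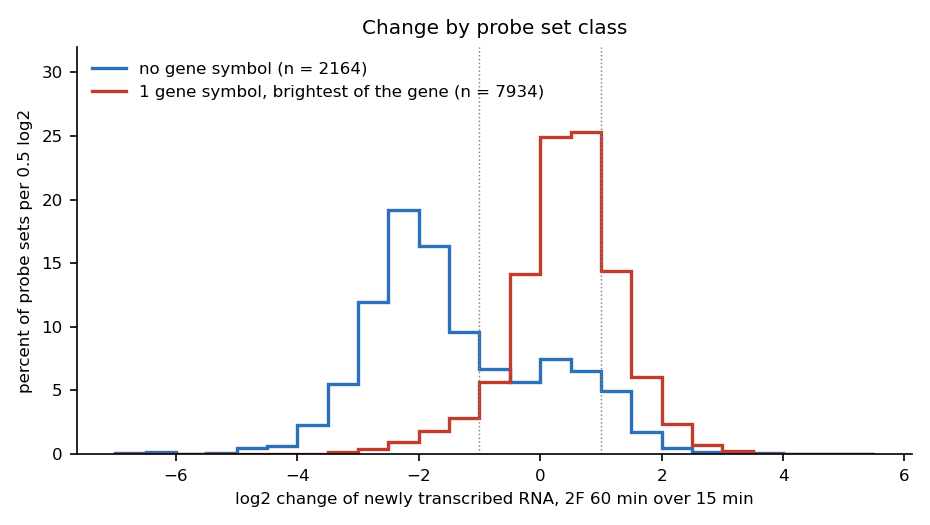
Distribution of the log2 change, 2F 60 min over 15 min, for probe sets without a gene symbol (blue) and for the brightest probe set of each gene (red), as percent of each class per bin of 0.5. Dotted lines mark 2-fold. The class without a symbol has its median at -1.72 and the class of genes at 0.49.

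Probe sets of 1 gene could move in opposite directions. Among 3628 genes with at least 2 probe sets tested, 262 (7.22%) had probe sets called in both directions, and for 84 of these both had a mean log2 of 7 or more. For Itga5, encoding an integrin subunit, 1423267_s_at had 610.1, 505 and 617 in 2F 60 min RNA, against 37.3, 75.5 and 33.2 in 15 min RNA (3.66 ± 0.28), while 1457561_at had 83.2, 82.0 and 56.6, against 252, 578 and 399 (-2.41 ± 0.29). The pre-existing means were 168 for the probe set that was higher and 9.4 for the one that was lower.

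Stat3, a transcription factor downstream of interleukin-6 family receptors, had 1090.2, 1144 and 1044 in 2F 60 min RNA, against 382, 489.9 and 366 in 15 min RNA by 1460700_at (1.42 ± 0.16), and 155, 121 and 128, against 2012, 1740.3 and 1863 by 1459961_a_at (-3.80 ± 0.15). In pre-existing RNA these probe sets had means of 635 and 13.3. Itprip gave 2.54 ± 0.24 and -2.98 ± 0.15, Meis1 1.18 ± 0.17 and -4.00 ± 0.33, and Marchf7, a ubiquitin ligase, 2.91 ± 0.17 and -1.98 ± 0.14. For Actb a second probe set, 1419734_at, was called lower (-1.61 ± 0.20), a gene chosen after its values were seen. The brightest probe set was the one called higher in 108 of the 262 genes and lower in 73.

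**Figure D5:**
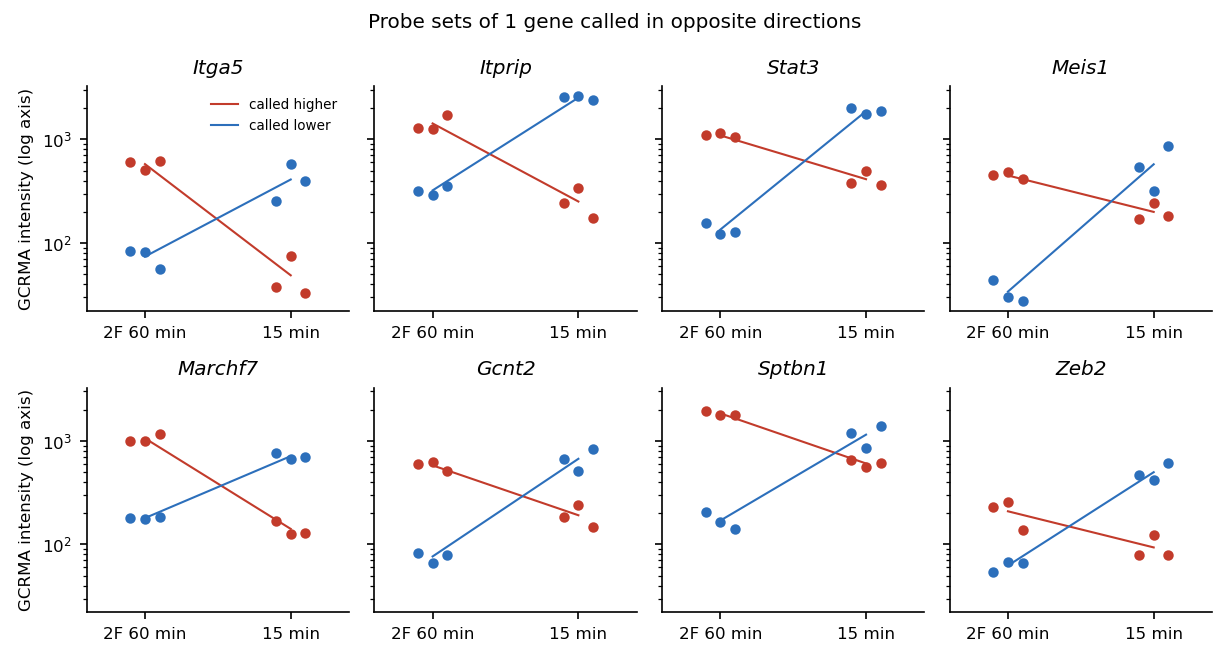
Intensity (log axis) in 2F 60 min and 15 min newly transcribed RNA for 8 genes with probe sets called in opposite directions. Points are arrays and lines join group means, red for the probe set called higher and blue for the one called lower. In each gene the red line is higher and the blue line lower in 2F 60 min RNA.

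Changes were also set against the span of a gene in the genome. The median log2 change was 0.44 for 1775 genes under 10 kb, 0.51 for 2650 genes of 10 to 30 kb, 0.47 for 2476 genes of 30 to 100 kb and 0.53 for 1009 genes of 100 kb or more. Of the genes under 10 kb 10.7% were called lower and 26.4% higher, against 4.26% to 5.41% lower and 20.4% to 25.9% higher in the longer classes. These are descriptions over genes, which are not replicates.

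The first 60 min experiment, of the same time and dose, was set against the same 15 min arrays, so its values are not independent of those above. Of 16069 probe sets tested 2805 were higher (17.5%) and 3006 were lower (18.7%), and 57.6% did not overlap. Snai1 changed by 4.33 ± 0.46 there, Klf10 by 3.97 ± 0.33, Dusp1 by -1.21 ± 0.27 and Ndufa3 by -2.12 ± 0.25. The difference of Fos, -0.99 ± 0.39, did not pass (limma adjusted p = 0.079). Leaving out replicate 3 at 15 min gave 1855 higher probe sets in this comparison.

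Set directly against each other, the 60 min experiments gave few calls. Of 15865 probe sets tested by limma 0 were higher in the 2F experiment (0.0%) and 2 were lower (0.0126%), with 2427 at an unadjusted p below 0.05 and 26.5% without overlap. Without replicate 1 of the first experiment, the array that stood apart, 729 were higher and 222 lower. The 2 called lower were 1444552_at, which has no symbol, and a probe set of Anxa1, encoding annexin A1, 1444016_at. Anxa1 read 24.2, 26.8 and 31.6 in the 2F experiment, against 216, 206 and 221 in the first, a difference of -2.97 ± 0.20 (adjusted p = 0.013). Rgs16 read 663, 799.9 and 973 in the 2F experiment, against 3084, 4557 and 5168 in the first, and its difference of -2.38 ± 0.28 missed the threshold (adjusted p = 0.084) although the groups did not overlap.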

How the data were processed

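RNA was extracted with Trizol and labelled by the Affymetrix one-cycle protocol, per the labels' protocols. The deposited intensities are GCRMA values, per the submitters' processing notes, and a version is not given in the sources used here. Of 31451 probe sets, 61 controls were left out, and 25031 of 31390 had exactly 1 symbol in GEO's annotation of the platform, naming 13232 genes. RefSeq was used to check them, with 24934 matches and 0 changes. Fits used limma 3.58.1 in R 4.3.3 (lmFit, eBayes, group only) on log2 values of each comparison's own arrays above an average log2 of 5, and were tested on simulated data. A group may fall under this floor, since it applies to the average. The probe set with the highest mean over the 6 arrays stood for a gene. Arrays have no depth, and their number limits the precision.

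Named genes were the 15 largest called increases and decreases (average log2 at least 7, 1 symbol, no overlap, brightest probe set of the gene), up to 6 members of each gene list with the largest change, Fos, Myc, Dusp1, Junb and Actb, and the calls between the 60 min experiments. All members and the 25 lists were chosen with earlier results of these data known. Further list members named in the text were chosen after their values were seen. Deviations of same-numbered arrays correlated at -0.02, 0.07 and -0.07, so the numbers were not taken to pair samples. Alternatives were quantile normalization, centring, other filters, all 18 newly transcribed RNA arrays in the fit, an intensity trend, a replicate block and leaving out arrays. Leaving out arrays for actinomycin D and total RNA was chosen after seeing the data.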

Additional observations from a re-analysis of the deposited data

Results flagged for a closer look

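Of 35 levels checked for an array far from its group, 1 was picked out, and chance gives about 1 in 20. The Ap2a2 probe set read 331.6 in replicate 2 of newly transcribed RNA at 30 min, well below the other 8 arrays of that group, whose median over all 9 was 546. That group does not enter the comparison of 2F 60 min with 15 min.

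The change of 60 min over 15 min differed between the 60 min experiments for a probe set of Anxa1, 1444016_at, by -2.97 on the log2 scale (limma adjusted p = 0.013, 2F over the first experiment). It read 24.2, 26.8 and 31.6 in the 2F experiment, under the floor of 32, and 216, 206 and 221 in the first. For 1444552_at, which has no gene symbol, the difference was -3.51 (adjusted p = 0.0057), with 50.1, 49.4 and 54.8 in the 2F experiment and 595, 536 and 623 in the first.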

How the results depend on the processing

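For 2F 60 min against 15 min, a filter at a mean log2 of 7 gave 1761 higher and 1573 lower probe sets, a smaller set of probe sets tested. No other alternative moved the counts by over 1.5 times. They were 3088 and 3083 under quantile normalization, 2988 and 3125 after centring, 4259 and 4134 with no filter, 3278 and 2898 with all 18 arrays, and 3064 to 3778 and 2906 to 3057 when 1 array was left out. With the replicate block they were 3452 and 2990. Same-numbered arrays did not deviate together, and the block ended all calls only between the 60 min experiments. There the lower count was 0 with the block, 4 under quantile normalization and 1 at a mean log2 of 7, and leaving out 1 array gave 0 to 729 higher and 0 to 222 lower, both maxima without replicate 1 of the first experiment. The first 60 min experiment against 15 min gave 1611 higher and 1508 lower at a mean log2 of 7, and 1855 to 3233 higher without 1 array. Actinomycin D gave 62 to 104 higher without 1 array. The share of probe sets without a symbol that were lower was 62.4% at a mean log2 of 7 and 36.9% with no filter, and the median change of genes of 100 kb or more minus those under 10 kb was 0.09, 0.17 with no filter and 0.02 to 0.14 without 1 array. The cause of these shifts was not tested. Of 2011 values for 156 named probe sets under 13 alternatives, 1962 kept their call and direction, 31 (in 12 probe sets) lost the call, 16 (in 8) gained it, and 2 reversed, both Actb, at -0.0443 after centring and -0.0051 to 0.0778 when 1 array was left out, lowest without replicate 3 of the 2F group. H1f2 lost its call most often. Array number and signal near the floor of 32 limit all of these values.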

Other observations

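H1f2, a linker histone gene and the member of the replication-dependent histone list that passed the filter, varied widely between arrays. It read 294, 1164 and 1366 in 2F 60 min RNA, against 554, 34.7 and 221 in 15 min RNA, values that overlap, and its change of 2.26 ± 0.90 carried an adjusted p of 0.046 (limma). In total RNA it read 184, 472 and 357 in the 2F experiment, against 22.0, 30.9 and 30.0 before actinomycin D.

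Among probe sets without a gene symbol, the largest increases with a mean log2 of 7 or more were 1419675_at (3.75 ± 0.18) and 1436512_at (3.40 ± 0.21). 1419675_at read 683, 756 and 976 in 2F 60 min RNA, against 69.9, 56.7 and 52.2 in 15 min RNA. After 1439535_at, the largest decrease was 1441768_at, at 62.1, 41.2 and 50.2 in 2F 60 min RNA, against 3411, 2768 and 4657 in 15 min RNA (-6.13 ± 0.22).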
